A study of Mus musculus with 4 samples.

Results

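The lysosomal genes described here are 31 named mouse genes that encode cathepsins, glycosidases and other hydrolases, lysosomal membrane proteins, activator and lipid-carrier proteins, subunits of the proton pump, and the transcription factor TFEB. They were taken by symbol, through the transcript accession that the array files give for each probe. All 31 had a probe, 47 probes in all, out of 17305 named genes with a probe. After the filter on dim probes 30 of them were tested among 15003 features, and Tfeb was not.

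RNA came from intact ureteric buds of mouse kidney, the branching epithelium from which collecting ducts and ureter form, and the comparison asks which transcripts differ after exposure to angiotensin II. The AngII buds were kept for 6 h with AngII at 1e-05 M, and the media buds were kept for 6 h in media alone. Both were cultured in matrix gel in DMEM/F12 with 10% FBS, 100 ng/ml GDNF and 100 ng/ml HGF, so both had serum and both growth factors. Strain, genotype, embryonic age and the number of buds per RNA were not stated in the labels. The labels number 2 AngII RNAs and 2 media RNAs and call them biological replicates, but name no separate animals or cultures. Each numbered pair was read on 2 two-colour arrays of opposite dye orientation, which gives 4 arrays.

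Lysosomes break down proteins, glycans and lipids with acid hydrolases, most of which are sorted to them by mannose 6-phosphate receptors. A proton pump, the vacuolar ATPase, keeps the lumen acidic, and heavily glycosylated membrane proteins line the membrane that holds the enzymes. Many of these genes carry short E-box-type sequences near their start, the CLEAR elements, which TFEB and its relatives bind. In the kidney the epithelium of the tubules takes up filtered protein and degrades it in lysosomes, and loss of Gla causes Fabry disease, a storage disease that damages the kidney.

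The promoter stretches of 6 members are shown because they hold the E-box letters and because the genes differ in their ratios. They are 80 bases long, read 5′ to 3′ on the strand of the gene from RefSeq promoter windows of GRCm38.p6, end before the annotated start and carry the E-box in capitals.
Gla: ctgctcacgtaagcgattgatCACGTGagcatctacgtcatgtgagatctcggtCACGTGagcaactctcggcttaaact
Sgsh: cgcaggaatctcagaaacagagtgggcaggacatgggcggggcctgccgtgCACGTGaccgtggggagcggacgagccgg
Atp6v1a: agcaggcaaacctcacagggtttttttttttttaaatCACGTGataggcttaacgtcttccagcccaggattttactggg
Glb1: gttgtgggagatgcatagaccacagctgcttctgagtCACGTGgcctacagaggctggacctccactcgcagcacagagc
Lamp1: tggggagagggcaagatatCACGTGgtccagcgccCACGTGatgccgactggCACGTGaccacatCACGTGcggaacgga
Mcoln1: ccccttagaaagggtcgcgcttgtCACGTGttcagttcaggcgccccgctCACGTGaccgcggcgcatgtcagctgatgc

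The Gla stretch lies at chrX:134601174-134601253 on the minus strand, and the Sgsh stretch at chr11:119355511-119355590 on the minus strand. The Atp6v1a stretch lies at chr16:44139348-44139427 on the minus strand, and the Glb1 stretch at chr9:114400993-114401072 on the plus strand. The Lamp1 stretch lies at chr8:13159081-13159160 and the Mcoln1 stretch at chr8:3500424-3500503, both on the plus strand. Promoter windows of 300 bases, 250 before and 50 after the start, were in the table for 25 of the 31 members. The letters CACGTG, which read the same on both strands, were in the windows of 10 of these 25 genes (40%), against 8.09% of the 27025 genes with a window. The longer TCACGTGA, which contains CACGTG and also reads the same on both strands, was in 6 of the 25 (24%), against 1.12% of all genes. A match is a description of the letters, not of binding.

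Per array and dye, 19024 to 21919 of 41174 probes passed the scanner software's test of being well above background. Across features the ratios of the 2 numbered replicates differed by no more than the arrays themselves: their half-difference had an SD of 0.038 log2 units, against 0.037 for pure array noise. With limma 0 of 15003 features differed between the replicates after adjustment, while 767 did at an unadjusted p under 0.05. Among the lysosomal members 0 of 30 differed between replicates, also at an unadjusted p under 0.05. The 2 numbered pairs were for this reason treated as 1 independent pair. The p-values from limma measure the spread between hybridisations of these RNAs and nothing of how other buds would vary, and the comparison has no check in a second independent pair. The larger spread was between dye orientations, with an SD of 0.16 across features, against 0.38 for the AngII over media contrast itself.

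Lysosomal transcripts were on balance higher in AngII buds, by small amounts. Of the 30 tested members 20 passed as higher and 4 as lower, and 6 did not pass, in limma at an adjusted p under 0.05. Most features of these arrays passed, 77.1% in either direction, with 39.0% higher and 38.1% lower, and the members' count is read against that. The members' median log2 ratio of AngII over media was 0.18, against 0.00 over all features, and the members ranged from -0.51 for Psap to 0.95 for Ctsh. At least 1.5-fold higher were 6 members, Ctsh, Ctsb, Gla, Asah1, Gusb and Sgsh, beside 5.49% of all features. At least 1.5-fold lower were 0 members, beside 5.39% of all features, although 1 probe each of Grn and Psap, neither the brightest of its gene, passed that fold. With the replicate number as a block on the 4 arrays, which leaves the dye difference in the residual, 10 members passed as higher and 1 as lower, beside 30.9% of all features in either direction. The members that lost the call in that fit were Ctsa, Ctsd, Ctsl, Ctsz, Glb1, Man2b1, Tpp1, Npc1, Cd63, Npc2, Atp6v1h, Atp6v1a and Atp6v0a1, with adjusted p-values between 0.0521 and 0.557.

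The ratio kept 1 sign on all 4 arrays for 21 of the 30 members, 18 of them positive and 3 negative, beside 59.0% of all features. The AngII and media levels of the 4 arrays did not overlap for 14 members, 13 with AngII above media and 1 with AngII below, beside 33.0% of all features. Levels here are normalised channel intensities on the log2 scale, and they are compared only within a probe. The 4 levels of a gene are given for the arrays with AngII in Cy5, replicates 1 and 2, and then for those with AngII in Cy3, replicates 1 and 2.

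**Figure D1:**
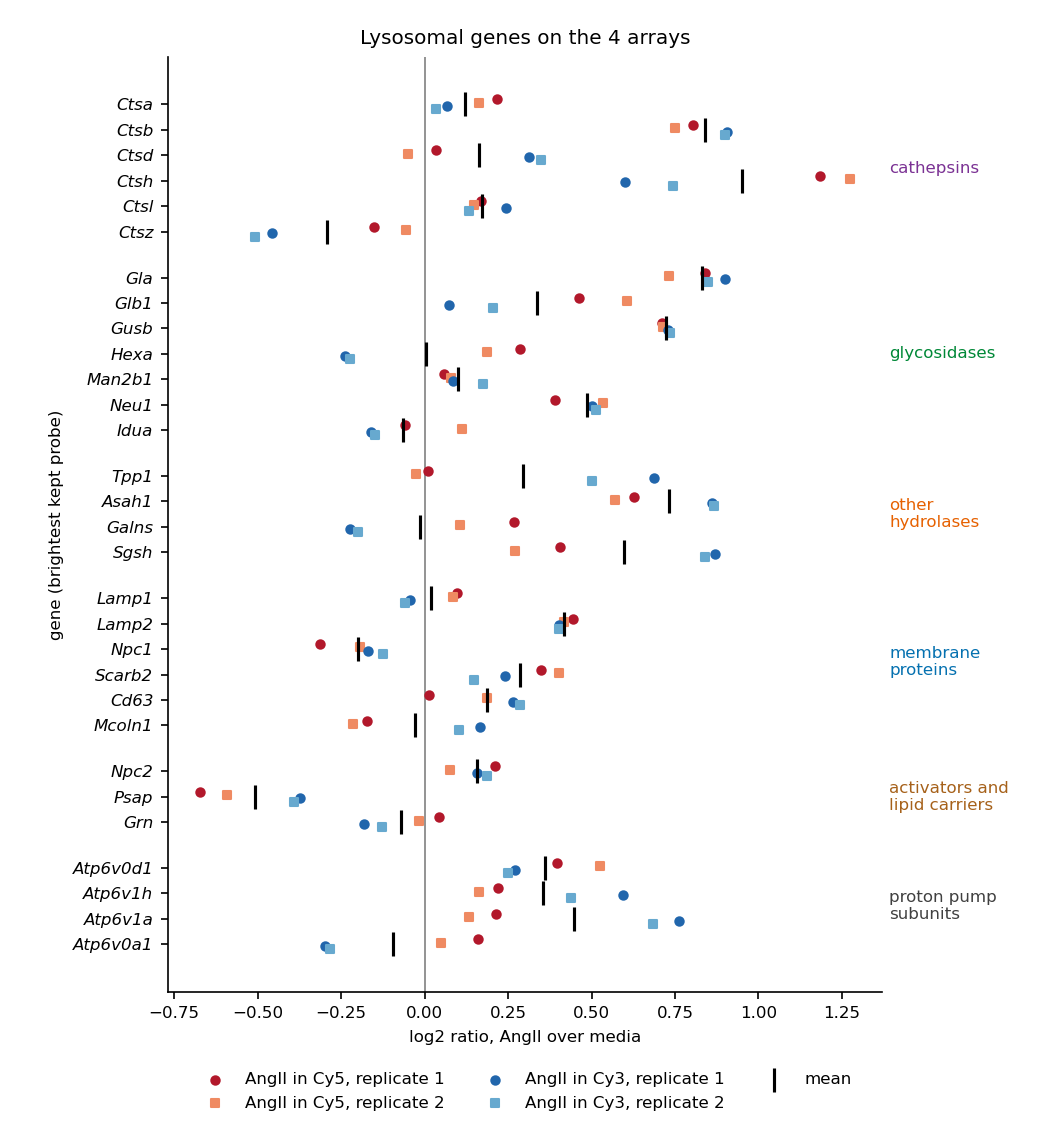
Log2 ratio of AngII over media (x axis) for the 30 tested lysosomal genes (rows, by role) on each of the 4 arrays, with the mean as a black bar. Ctsh, Ctsb and Gla lie farthest to the right at means of 0.95, 0.84 and 0.83, Psap farthest to the left at -0.51, and the red and blue points of Tpp1, Sgsh and Atp6v1a stand apart.

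Among the cathepsins and related proteases 5 of 6 passed as higher and 1 as lower, with a median log2 ratio of 0.17. The counts of this and each later role stand beside 39.0% higher, 38.1% lower and 77.1% in either direction over all features. With the replicate block Ctsb and Ctsh alone of the 6 cathepsins passed, and the adjusted p of the other 4 lay between 0.092 and 0.274. Ctsh, an aminopeptidase of the papain family, had AngII levels of 13.25, 13.18, 12.59 and 12.99, against media levels of 12.07, 11.90, 11.99 and 12.24. Every AngII level was above every media level. Its log2 ratio was 0.95 (limma SE 0.036, n = 2 averaged ratios), a 1.93-fold difference with an adjusted p of 2.33e-16, and it was larger with AngII in Cy5 (1.18 and 1.27) than with AngII in Cy3 (0.60 and 0.74).

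Ctsb, the abundant lysosomal cysteine protease cathepsin B, had AngII levels of 12.00, 12.08, 12.45 and 12.40, against media levels of 11.20, 11.33, 11.54 and 11.51. The groups did not overlap, and the log2 ratio was 0.84 (limma SE 0.034, adjusted p = 7.30e-16), a 1.79-fold difference with 0.75 to 0.91 on the 4 arrays. A second, much dimmer kept probe of Ctsb had a log2 ratio of 0.14, with overlapping groups, so the size of the difference rests on the probe.

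Cathepsins L, D and A differed by little. Ctsl, a cysteine endopeptidase, had AngII levels of 14.43, 14.38, 14.58 and 14.46, against media levels of 14.26, 14.24, 14.34 and 14.32, which do not overlap, and a log2 ratio of 0.17 (adjusted p = 9.53e-05, and 0.092 with the replicate block). Ctsd, the main lysosomal aspartic protease, had a log2 ratio of 0.16 that came from 1 dye orientation: 0.03 and -0.05 with AngII in Cy5, and 0.31 and 0.35 with AngII in Cy3. The other kept probe of Ctsd ran the opposite way at -0.13. Ctsa, a serine carboxypeptidase that also protects neuraminidase and beta-galactosidase in a complex, had a log2 ratio of 0.12 (0.03 to 0.22 on the 4 arrays), and its other kept probe, almost as bright, had -0.03.

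Ctsz, a carboxypeptidase also known as cathepsin X, was the 1 member of this role that was lower. It had AngII levels of 11.84, 11.79, 11.36 and 11.19, against media levels of 12.00, 11.84, 11.82 and 11.70. These groups overlap, and the array ratios were -0.15 and -0.06 with AngII in Cy5 but -0.46 and -0.51 with AngII in Cy3. The log2 ratio was -0.29 (adjusted p = 5.17e-08, and 0.103 with the replicate block). Its other kept probe averaged -0.22 but was 0.24 on both arrays with AngII in Cy5, so the direction of Ctsz depended on the dye orientation in that probe.

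Of the 7 glycosidases, the enzymes that remove sugars from glycoproteins, glycolipids and proteoglycans, 5 passed as higher and 0 as lower, with a median log2 ratio of 0.34. The arrays with AngII in Cy5 gave a median of 0.46 by themselves and those with AngII in Cy3 gave 0.14, and with the replicate block Gla, Gusb and Neu1 passed. Gla, the alpha-galactosidase lacking in Fabry disease, had AngII levels of 8.59, 8.37, 8.67 and 8.66, against media levels of 7.75, 7.64, 7.77 and 7.82. The groups are separated on every array, and the log2 ratio was 0.83 (limma SE 0.035, adjusted p = 1.44e-15), a 1.78-fold difference with 0.73 to 0.90 on the 4 arrays.

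Gusb, the beta-glucuronidase, had AngII levels of 10.03, 9.90, 10.24 and 10.27, against media levels of 9.32, 9.19, 9.52 and 9.53. Its ratio varied least among the large ones, from 0.71 to 0.73 on the 4 arrays, with a mean of 0.72 (limma SE 0.034, adjusted p = 9.84e-15), a 1.65-fold difference. Gusb thus gave almost the same value in both dye orientations.

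The other glycosidases differed less or not at all. Neu1, the sialidase that works in the complex with Ctsa, had AngII levels of 11.80 to 11.98, against media levels of 11.41 to 11.48, and a log2 ratio of 0.49 (adjusted p = 1.76e-11), a 1.40-fold difference, but its other kept probe passed the opposite way at -0.31. Glb1, the beta-galactosidase of the same complex, had a log2 ratio of 0.34. Its arrays gave 0.46 and 0.61 with AngII in Cy5, and 0.07 and 0.20 with AngII in Cy3. The dimmer kept probe of Glb1 averaged 0.22 but had the reverse dye pattern. That probe gave -0.02 and -0.09 with AngII in Cy5, and 0.50 and 0.47 with AngII in Cy3. Man2b1, the alpha-mannosidase, had 0.10 (0.06 to 0.17).

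Hexa and Idua did not pass. Hexa, the alpha subunit of beta-hexosaminidase, had 0.29 and 0.19 with AngII in Cy5 and -0.24 and -0.22 with AngII in Cy3, a mean of 0.00. Idua, an iduronidase that acts on heparan and dermatan sulfate, was dim, with AngII levels of 6.24 to 6.49 and media levels of 6.37 to 6.57, and had a log2 ratio of -0.06. Its call depended on the treatment of background. Idua passed as lower in limma without background correction (-0.10, adjusted p = 0.024) and with Agilent processed signals (-0.35, adjusted p = 0.000916). With the kept probes of a gene averaged, the glycosidase median was 0.10 and the cathepsin median 0.11.

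Of the 4 other hydrolases 3 passed as higher, with a median log2 ratio of 0.44. Taken by dye orientation, the median was 0.26 where AngII was in Cy5 and 0.72 where it was in Cy3. Asah1, the acid ceramidase, had AngII levels of 10.99, 11.14, 11.24 and 11.16, against media levels of 10.37, 10.57, 10.37 and 10.29. The groups did not overlap, and the log2 ratio was 0.73 (limma SE 0.034, adjusted p = 8.24e-15), a 1.66-fold difference with 0.57 to 0.87 on the 4 arrays. Sgsh, the sulfamidase of heparan sulfate degradation, had AngII levels of 7.29, 7.39, 7.47 and 7.42, against media levels of 6.88, 7.12, 6.61 and 6.58. Those groups were apart as well, with a log2 ratio of 0.60 (adjusted p = 5.07e-13) that was 0.41 and 0.27 with AngII in Cy5 and 0.87 and 0.84 with AngII in Cy3.

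Tpp1, the tripeptidyl peptidase lacking in a form of neuronal ceroid lipofuscinosis, had AngII levels of 10.22, 10.49, 11.06 and 10.86, against media levels of 10.21, 10.52, 10.37 and 10.36. Its log2 ratio of 0.29 (adjusted p = 1.28e-07, and 0.208 with the replicate block) came from the arrays with AngII in Cy3, at 0.69 and 0.50, while those with AngII in Cy5 gave 0.01 and -0.03. The dimmer kept probe of Tpp1 was positive on all 4 arrays, from 0.17 to 0.64. Galns, a sulfatase that acts on keratan and chondroitin sulfate, did not pass, with a mean of -0.01 and opposite signs in the 2 orientations.

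**Figure D2:**
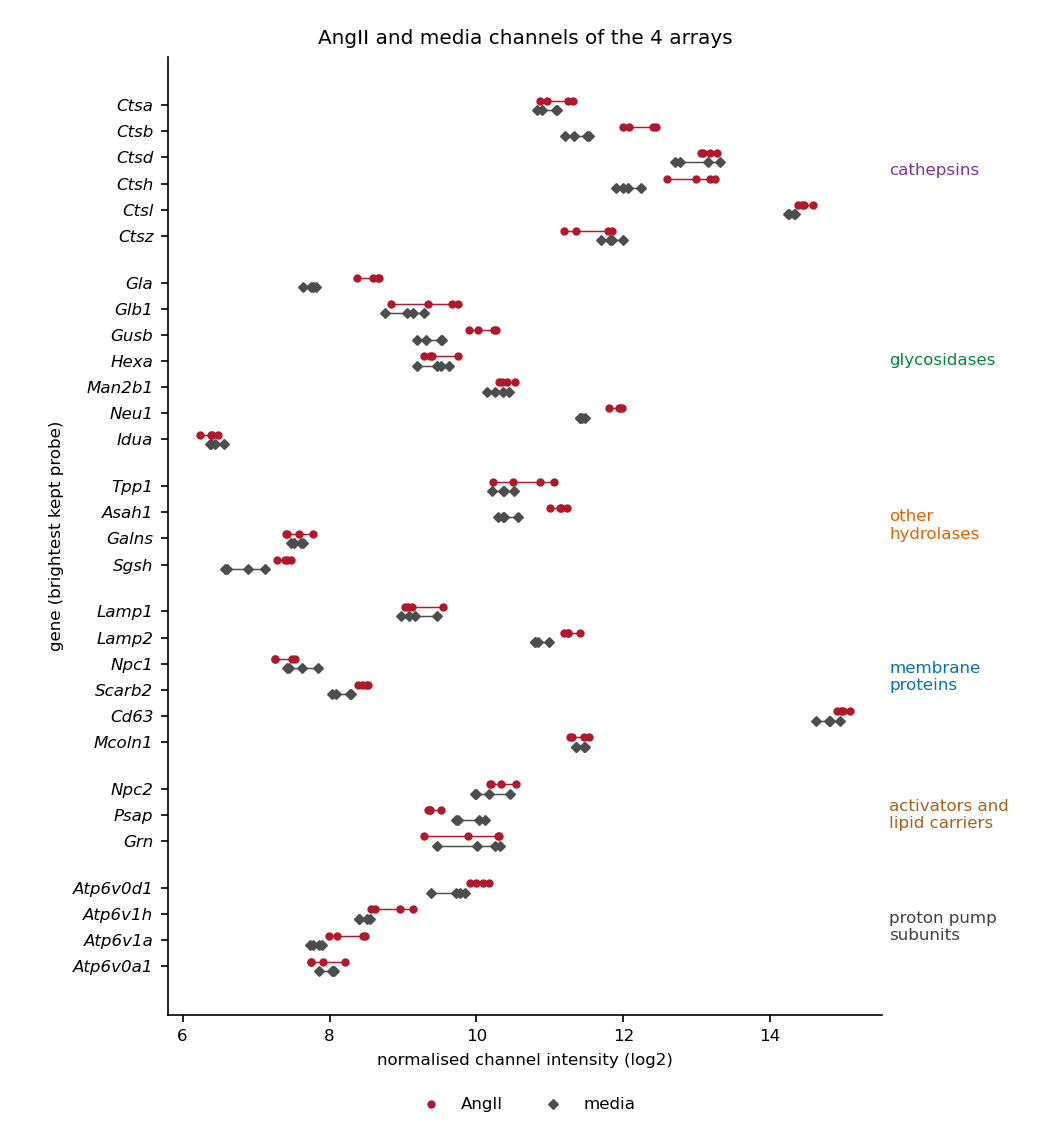
Normalised channel intensity on the log2 scale (x axis) of the brightest kept probe of each lysosomal gene (rows), with the 4 AngII channels in red above the 4 media channels in grey and a line from the lowest to the highest. The red and grey points are apart for Ctsh, Ctsb, Gla, Gusb, Neu1, Asah1 and Lamp2, and the red points lie below the grey for Psap alone among the genes without overlap.

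The 6 membrane proteins were divided, with 3 higher, 1 lower and 2 not passed, and their median log2 ratio was 0.10. Lamp2, a main glycoprotein of the lysosomal membrane with a role in chaperone-mediated autophagy, had AngII levels of 11.24, 11.41, 11.25 and 11.20, against media levels of 10.80, 10.99, 10.84 and 10.79. The groups did not overlap, and the log2 ratio was 0.42 (adjusted p = 1.50e-10), a 1.33-fold difference with 0.40 to 0.45 on the 4 arrays. A second kept probe of Lamp2, of another transcript accession, had 0.40. Lamp1, its close relative in the same membrane, did not pass, with AngII levels of 9.03 to 9.55 against media levels of 8.97 to 9.46 and a log2 ratio of 0.02.

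Scarb2, the receptor that carries glucocerebrosidase to the lysosome, had a log2 ratio of 0.28 (0.15 to 0.40 on the 4 arrays, adjusted p = 8.39e-08), and its other kept probe had 0.16. Cd63, a tetraspanin of late endosomes and lysosomes, had 0.19 with 0.01 to 0.28 on the 4 arrays. Mcoln1, the calcium channel mucolipin 1, did not pass, with -0.17 and -0.22 with AngII in Cy5 and 0.17 and 0.10 with AngII in Cy3. Npc1, the membrane protein that exports cholesterol from lysosomes, was lower, with AngII levels of 7.53, 7.26, 7.25 and 7.49 against media levels of 7.84, 7.46, 7.42 and 7.62. The Npc1 ratio was negative on all 4 arrays, from -0.31 to -0.12, with a mean of -0.20 (adjusted p = 1.95e-05, and 0.0776 with the replicate block), although its levels overlapped.

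The activator and lipid-carrier proteins went different ways. Npc2, the soluble partner that hands cholesterol to Npc1, had a log2 ratio of 0.16 (0.08 to 0.21 on the 4 arrays, adjusted p = 0.000244, and 0.123 with the replicate block). Psap, the precursor of the saposins that help hydrolases act on sphingolipids, had AngII levels of 9.37, 9.52, 9.37 and 9.34, against media levels of 10.04, 10.12, 9.75 and 9.73. The groups did not overlap, and the log2 ratio of -0.51 (limma SE 0.034, adjusted p = 5.39e-12) was the lowest of the members on the probes used. Its other kept probe gave -0.69, also without overlap.

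Grn, which encodes progranulin, a protein cleaved to granulins in lysosomes, had 2 kept probes of nearly equal brightness and the same transcript accession that did not give the same result. The probe used had AngII levels of 10.30, 10.30, 9.29 and 9.89 against media levels of 10.25, 10.32, 9.47 and 10.01, and its log2 ratio of -0.07 did not pass (adjusted p = 0.0602). The other had AngII levels of 9.54, 9.46, 8.52 and 8.33 against media levels of 11.12, 11.11, 10.72 and 10.59. Its log2 ratio was -1.92, with -2.26 to -1.58 on the 4 arrays and no overlap, and the authors' deposited table gives -1.99 for it. Which of the 2 probes reports the level of Grn was not tested, and the mean of both was -1.0.

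**Figure D3:**
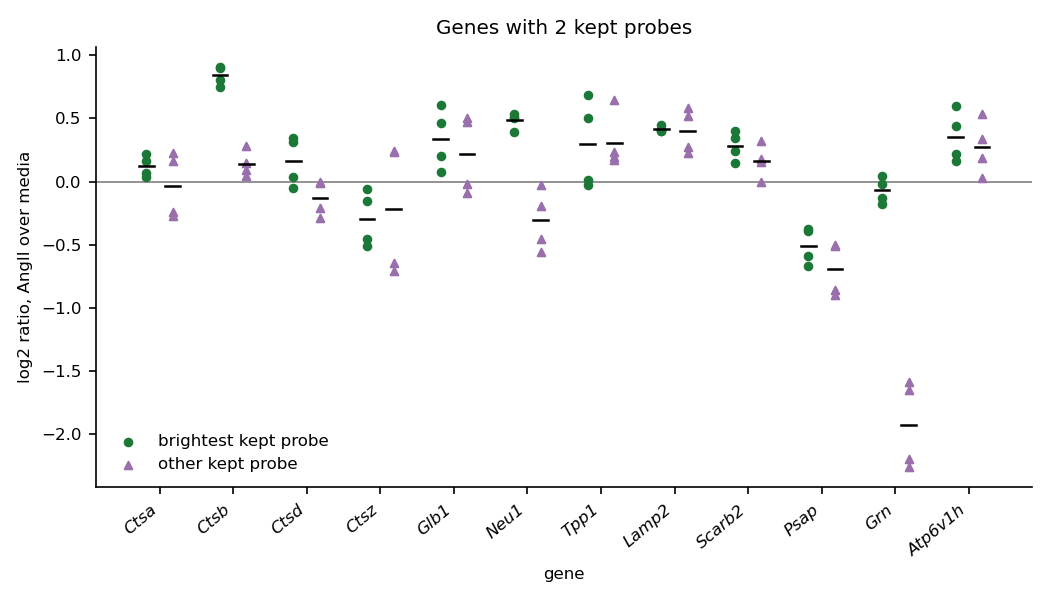
Log2 ratio of AngII over media (y axis) on the 4 arrays for the 12 lysosomal genes with 2 kept probes, the brightest in green and the other in purple, with means as black bars. The probes lie close for Lamp2 and Tpp1, far apart for Ctsb and Grn, and on opposite sides of 0 for Ctsa, Ctsd and Neu1.

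Of the 4 subunits of the proton pump 3 were higher and 1 lower, with a median log2 ratio of 0.36. Atp6v1a, the catalytic subunit of the cytosolic V1 sector, had AngII levels of 8.11, 7.99, 8.49 and 8.45, against media levels of 7.89, 7.86, 7.73 and 7.77. The groups were apart, with a log2 ratio of 0.45 (adjusted p = 7.35e-11, and 0.0715 with the replicate block), 0.21 and 0.13 with AngII in Cy5 and 0.76 and 0.68 with AngII in Cy3. Atp6v1h, a regulatory subunit of the same sector, had 0.35 (0.16 to 0.59), and its other kept probe had 0.27.

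Atp6v0d1, a subunit of the membrane-bound V0 sector, had AngII levels of 9.91 to 10.18, against media levels of 9.38 to 9.84, and a log2 ratio of 0.36 (0.25 to 0.53, adjusted p = 2.23e-09). Atp6v0a1, another V0 subunit, passed as lower at -0.09 (adjusted p = 0.0160, and 0.557 with the replicate block), with 0.16 and 0.05 with AngII in Cy5 and -0.30 and -0.28 with AngII in Cy3. With the arrays of AngII in Cy5 alone the median of these 4 subunits was 0.18.

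Tfeb, the transcription factor that binds CLEAR elements, was well above background on 2 of 4 arrays in AngII and on 2 of 4 in media, so it was not tested. Its AngII levels were 6.14, 6.01, 6.24 and 6.21, and its media levels 6.28, 6.21, 6.07 and 6.15. The ranges overlap, and no fold is given at this signal.

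Of the 10 members with CACGTG in the window all were tested, and 8 passed as higher, 0 as lower and 2 not at all, with a median log2 ratio of 0.26 and a range of -0.03 to 0.83. These were Atp6v0d1, Atp6v1a, Ctsa, Ctsd, Ctsl, Gla, Glb1, Lamp1, Mcoln1 and Sgsh. Of the 14 tested members whose window lacked it 8 passed as higher, 3 as lower and 3 not at all, with a median of 0.13 and a range of -0.51 to 0.72. The 2 ranges largely coincide, and over all features 39.0% passed as higher and 38.1% as lower. Lamp1, with 4 copies in the stretch printed above, and Mcoln1, with 2, did not pass, while Gla, with 2, had the largest ratio of the group. Ctsh, Ctsb, Asah1, Atp6v1h, Galns and Npc1 had no window and are in neither group. Ctsh and Ctsb had the largest ratios of all tested members, 0.95 and 0.84. With the replicate block Gla, Sgsh and Atp6v0d1 passed among the members with CACGTG, all as higher. Among those whose window lacked it, Gusb, Neu1, Lamp2 and Scarb2 passed as higher and Psap as lower.

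The mean ratios of the 2 dye orientations had opposite signs for 9 of the 30 members, Ctsd, Hexa, Idua, Tpp1, Galns, Lamp1, Mcoln1, Grn and Atp6v0a1, a share close to the 30.9% of all features. Of these 9, Ctsd, Tpp1 and Atp6v0a1 passed when both orientations were averaged. Ctsb, Gla, Gusb, Neu1 and Lamp2 lay near the line of equal ratios.

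**Figure D4:**
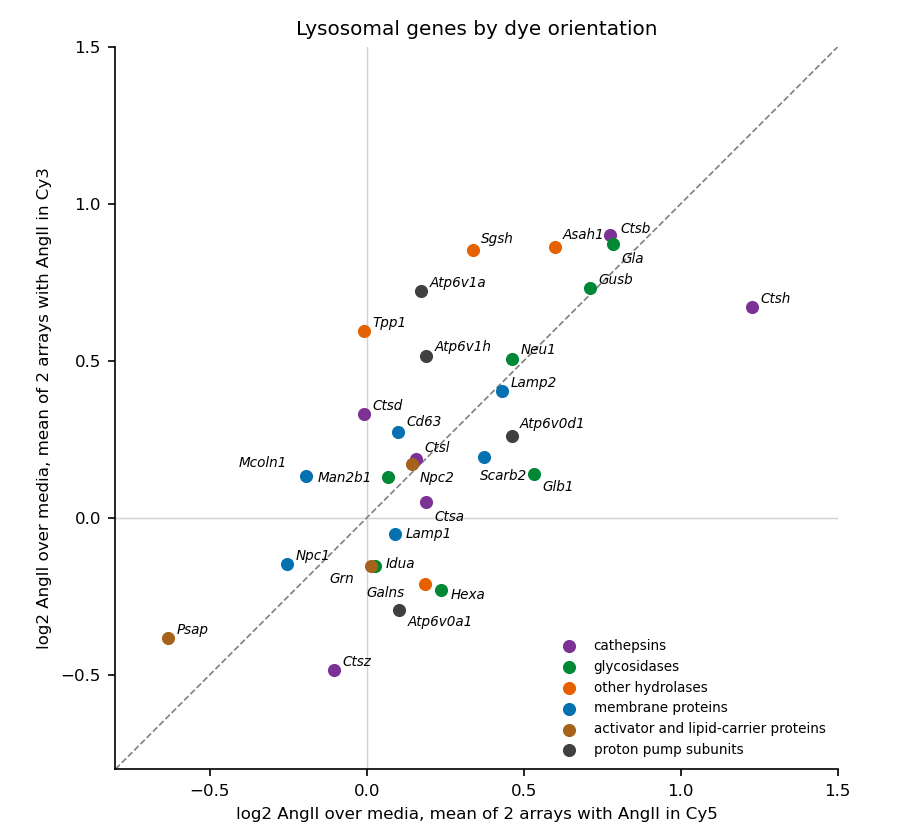
Mean log2 ratio of AngII over media on the 2 arrays with AngII in Cy5 (x axis) against that on the 2 arrays with AngII in Cy3 (y axis) for the 30 tested lysosomal genes, coloured by role, with the line of equal values dashed. Gusb, Neu1 and Lamp2 lie near the line, and Ctsh, Tpp1 and Atp6v1a lie far from it.

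The authors' deposited table gave close values for these probes, with a Pearson correlation of 0.995 over the tested features. That value is across genes, which are not independent replicates. By the calls of the authors' deposited table, 19 members were higher and 3 lower. The members that passed here without a call in the authors' deposited table were Man2b1, at 0.0920 there, and Atp6v0a1, at -0.116 there.

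The same fit was read for other genes of the lysosome. In 6 lists of further proteases, glycosidases, hydrolases, sorting factors, membrane proteins and pump subunits, 75 of 94 genes were tested, and 52 passed as higher and 14 as lower, with a median log2 ratio of 0.22. These counts, and those of each list that follows, stand beside 39.0% higher, 38.1% lower and 77.1% in either direction over all features. With the replicate number as a block 31 were higher and 4 lower, beside 30.9% of all features in either direction in that fit.

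The glycosidases outside the members had 9 of 10 higher and 1 lower, with a median of 0.48. Fuca1, the alpha-fucosidase, had a log2 ratio of 0.62 (0.57 to 0.67 on the 4 arrays) and 0.75 in its other kept probe. Ctbs, the chitobiase, had 0.60 (0.33 to 0.88), from a dim probe with a mean log2 intensity of 6.64.

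The further hydrolases had 12 of 14 higher and 2 lower, with a median of 0.28. Arsa, the sulfatase of sulfatides, had 0.64 (0.52 to 0.77). Gm2a, the activator that presents GM2 ganglioside for hydrolysis, had 0.60 (0.37 to 0.85), but its other kept probe had -0.18. Naaa, an amidase of N-acylethanolamines, had 0.44.

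Of the further proteases 6 of 8 were higher and 2 lower, with a median of 0.19. Ctsw had 0.62 (0.49 to 0.77), from a dim probe with a mean log2 intensity of 6.73. Ctsc, the dipeptidyl peptidase that activates serine proteases of leukocytes, had 0.48. Scpep1, a serine carboxypeptidase, had 0.38, with 0.07 in its other probe. Prcp, a prolylcarboxypeptidase that can cleave angiotensin II, was lower at -0.26 (-0.39 to -0.12), with -0.17 in its other probe.

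The sorting list had 3 of 9 higher, 3 lower and 3 not passed, with a median of -0.02. M6pr, the cation-dependent mannose 6-phosphate receptor, had 0.48 from 3 arrays. Its spot on the array of replicate 1 with AngII in Cy3 was marked as an outlier. The M6pr ratio of replicate 1 thus came from AngII in Cy5 alone, and the dye orientations were not averaged in it. The other kept probes of M6pr had 0.34 and 0.11. The GGA adaptors, which load those receptors into carriers, were split, with Gga2 at 0.54, Gga1 at -0.51 and Gga3 at -0.76, the last with -0.38 in its other probe.

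The further membrane proteins had 15 of 21 higher and 2 lower, with a median of 0.16. Laptm4b, a transmembrane protein of late endosomes, had 0.70, Slc17a5, the sialic acid exporter, had 0.69 and Tpcn1, an endolysosomal ion channel, had 0.50. Clcn7, the chloride-proton exchanger, was lower at -0.64 (-0.67 to -0.60). The further pump subunits had 7 of 13 higher and 4 lower, with a median of 0.12. Tcirg1, an a subunit of the V0 sector, had 0.71, Atp6v0e2 had 0.63 in one probe and 0.05 in the other, and Atp6v1g1 had 0.55 and 0.54, while Atp6v0c, which forms the proton-carrying ring, was lower at -0.54.

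**Figure D5:**
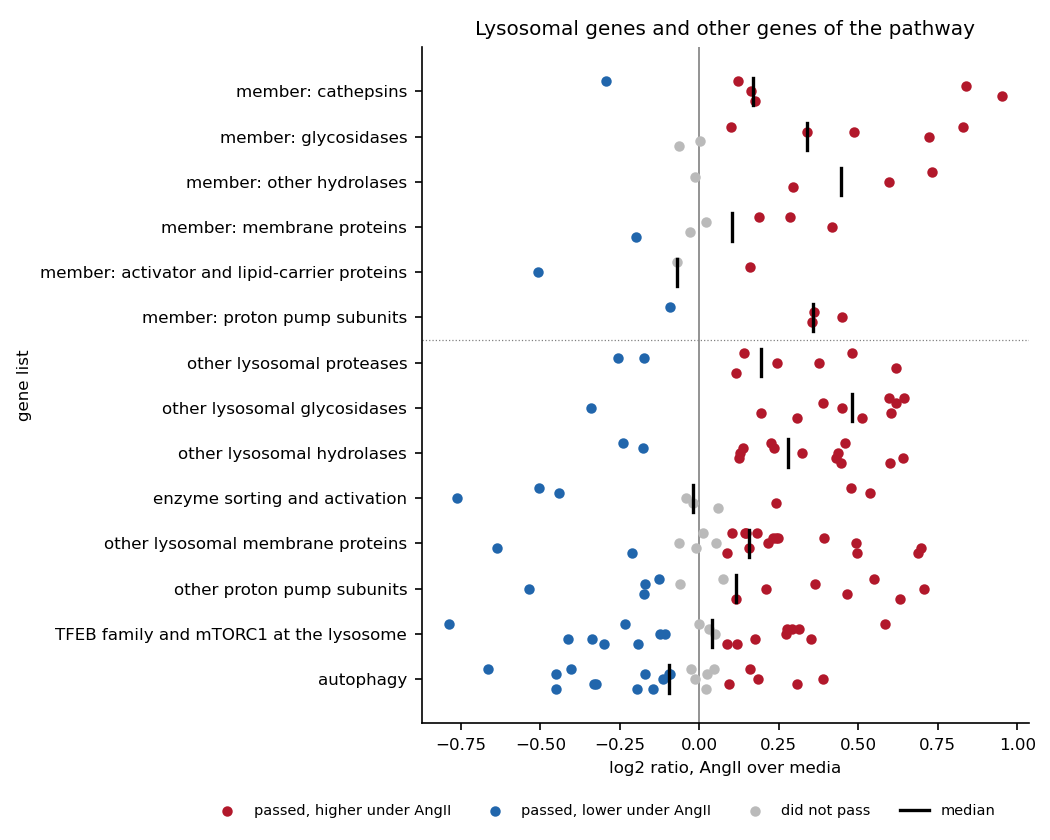
Log2 ratio of AngII over media (x axis) of each tested gene by list (rows), lysosomal members above the dotted line and other genes of the pathway below it, with red for passed as higher, blue for passed as lower, grey for not passed and a black bar at the median. The median is highest in the further glycosidases at 0.48 and lowest in autophagy at -0.09.

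Genes of the TFEB family and of the mTORC1 machinery that holds TFEB in the cytosol had 9 of 20 higher, 8 lower and 3 not passed and a median of 0.04, close to the shares of 39.0% higher and 38.1% lower over all features. Tfe3, the relative of TFEB that binds the same elements, was lower at -0.79 (-0.89 to -0.64), with -0.14 in a second, dimmer probe. Of the Ragulator subunits that anchor mTORC1 to the lysosome, Lamtor4 had 0.58 and Lamtor2 0.35, and the Rag GTPase gene Rragc was lower at -0.41, with -0.04 in its dimmer probe. The other Ragulator genes and the other Rag genes were each divided between higher and lower.

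Of 22 autophagy genes 5 were higher, 12 lower and 5 not passed, with a median of -0.09, beside 39.0% higher and 38.1% lower over all features. The genes that passed in either direction were close in share to the 77.1% of all features. Map1lc3a, a ubiquitin-like protein of the autophagosome membrane, was lower at -0.67 (-0.79 to -0.54), and Wipi2, which recruits the conjugation machinery, at -0.45, with -0.42 in its other probe. Gabarapl1, of the same family as Map1lc3a, was lower at -0.45, with -0.51 in its other probe, and Sqstm1, the cargo receptor p62, at -0.40 (-0.72 to -0.07).

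Levels in these bulk samples do not tell fewer cells of a type from less RNA per cell. Erythroid markers were higher with AngII beside the lysosomal genes, while macrophage and leukocyte markers were divided. Of 8 erythroid genes 7 were higher, with a median log2 ratio of 2.06, and their summed linear intensity was 32280 to 39820 in AngII, against 6069 to 7155 in media. Of 11 tested macrophage and leukocyte genes, whose cells are rich in lysosomes, 4 were higher and 5 lower, with a median of -0.02. The summed intensity of the 15 with a probe was 2187 to 2416 in AngII, against 1940 to 2089 in media, and Cx3cr1, Fcgr3, Itgam and Lyz2 were not well above background. The highest log2 ratio was that of Ptprc at 0.64, from a dim probe, and the complement genes C1qa, C1qb and C1qc had -0.19, -0.17 and -0.19. Cd14, the brightest tested gene of this list with a mean log2 intensity of 9.32, had 0.47. Cd74 and Tyrobp, which also passed as higher, had 0.57 and 0.33, at mean log2 intensities of 7.31 and 6.87. How much of the difference in the summed intensity came from Cd14 was not tested.

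Of 12 tested genes of ureteric bud epithelium 6 were higher and 4 lower, with a median log2 ratio of 0.08. Their summed intensity was 214700 to 241200 in AngII, against 236200 to 308600 in media, and most of that sum came from the probes of the keratins Krt18 and Krt8. The AngII and media ranges of that sum overlap, so it gives no clear direction. Krt8 had a log2 ratio of -0.59 and Krt18 -0.03, while Epcam had 0.73 and Gata3 0.55. The size of the Krt8 ratio depended on the dye orientation. It was -0.04 and -0.35 with AngII in Cy5, and -0.95 and -1.015 with AngII in Cy3. The bud gene Ret was not well above background, while the epithelial genes Krt8, Krt18, Epcam and Gata3 were. The part of these marker shifts in the lysosomal ratios was not tested.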

How the data were processed

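Transcripts were measured on 4 two-colour Agilent arrays that hold AngII and media RNA, labelled from 300 ng of total RNA per the labels' protocols. The deposited scanner tables give the median pixel intensity of spot and background, processed intensity, a log10 ratio (not used) and flags. Per the file headers, Feature Extraction 10.5.1.1 made them. The authors' deposited table holds, for each spot, a log2 ratio, its adjusted p-value, a call coded as a score (-1, 0, 1) and a log2 mean intensity. The submitters' processing notes name limma.

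In R 4.3.3 with limma 3.58.1, intensities were background-corrected by normexp (offset 50) and loess-normalised within array, with control spots at weight 0 and outlier spots (0.311%) left out. Ratios with AngII in Cy3 were turned to AngII over media. The dye-swapped arrays of each number were averaged, and lmFit and eBayes tested the resulting 2 ratios against 0, Benjamini-Hochberg adjusted over 15003 features at 0.05. Probes well above background for AngII on all 4 arrays, or for media on all 4, were kept, and the brightest kept probe of a gene was used. Channel levels were Aquantile-normalised between arrays. Of 41174 probes 25097 were named through RefSeq accessions of GRCm38.p6; the array annotation is of another build, so no probe coordinates are given. The number of arrays limits the precision.

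All 31 members and, of each further list, up to 4 genes with the smallest p are named, except some that are not reported here; members and lists were chosen with earlier results of these data known. The macrophage, ureteric bud and erythroid lists served as markers, and the marker genes named singly were chosen after their values were seen. Alternatives are given in the closing section.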

Additional observations from a re-analysis of the deposited data

How the results depend on the processing

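Each count and median was recomputed under 13 alternatives, and 1 more, that every kept probe of a gene must pass the same way, was added after seeing the data; it left 17 members higher and 4 lower, against 20 and 4. The numbers pair RNAs only within an array, since the replicates did not differ beyond array noise. With the replicate block, 10 members passed as higher and 1 as lower, and of the other lysosomal genes 31 as higher and 4 as lower. In that fit 13 members lost their call. Its log2 ratios equal those of the main fit by design, so no sign could change. Leaving out each replicate in turn gave 6 to 7 members higher and 1 lower, and 17 to 21 other lysosomal genes higher and 3 to 4 lower. Of all 15003 features 11565 passed, against 4640 with the block and 2214 to 2939 without a replicate. These fits keep the dye difference in the residual, unlike the fit with dye as a term, in which all 30 members kept their call. The count of higher members was also smaller with Agilent processed signals, at 14, with 4 members lower. The fit with dye as a term gives the members the same log2 ratios as the main fit, so their direction could not change. With AngII in Cy3 alone 8 members were lower, Hexa had -0.23 and Mcoln1 0.13. With AngII in Cy5 alone Ctsd and Tpp1 had -0.01, Galns 0.19 and Atp6v0a1 0.10. At least 1.5-fold lower was 1 member with Agilent processed signals and with AngII in Cy5 alone, and 2 with a gene's probes averaged. The members' median was 0.26 with median centring and 0.24 in the authors' deposited table. The cathepsin median was 0.26 with AngII in Cy3 alone, 0.25 after median centring and 0.11 with probes averaged. The glycosidase median was 0.10 with probes averaged, 0.46 where AngII was in Cy5 and 0.14 where it was in Cy3, and that of the other hydrolases 0.26 and 0.72 in those orientations. The membrane protein median was 0.16 with AngII in Cy3 alone and 0.17 after median centring, and the pump median 0.18 with AngII in Cy5 alone. The cause of these moves was not tested. Ctsb, Ctsh, Gla, Gusb, Asah1, Sgsh and Psap kept call and direction under all 13.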

Other observations

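Of the 47 probes of lysosomal genes 42 were kept. The others were 1 more probe each of Ctsa, Sgsh, Atp6v1a and Atp6v0a1, and the probe of Tfeb, all with a mean log2 intensity between 5.96 and 6.17. The dim probes of Ctsa, Sgsh and Atp6v0a1 were well above background on 0 of 4 arrays in either RNA, and that of Atp6v1a on 1 of 4 in each. They give no ratio here, although the kept probes of Sgsh and Atp6v1a were higher in AngII.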
